A study of Drosophila melanogaster with 12 samples.

Results

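The change of the whole larva between 72 and 96 h after egg laying was described from a pair of libraries of Drosophila melanogaster, 1 at each age. The genes described were those with at least 5 FPKM (fragments per kilobase of transcript per unit of mapped fragments) in the higher of the 2 libraries, after symbols of small nucleolar, small noncoding and micro RNAs had been left out. The rule kept 7180 of 10893 genes, since 385 symbols were of small RNAs and 3328 further genes stayed below 5 FPKM at both ages. The measure was the log2 difference of FPKM + 1, 96 h minus 72 h, which understates the change of low genes. A gene was called higher or lower at 96 h when the difference reached 1 in size, or 2-fold. Counts of a gene list are over the members that the rule kept, unless said otherwise.

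Both libraries were made from whole larvae of the strain w[11-18], a white mutant, reared at 25 °C on medium of yeast and glucose. The 96 h larvae were collected at 96 ± 1 h and the 72 h larvae at 72 ± 1 h after egg laying. RNA with poly(A) tails was selected and primed with random hexamers. Whole larvae at 120 h and whole eye-antennal discs (the paired sacs of epithelium that form the adult eye, antenna and head capsule) at 96 and 72 h, of the same strain, are set beside the larvae below. No group had a replicate and the number of animals in a library is not given in the sources used here, so every difference compares 2 libraries, has no replicate check and carries no p.

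The last larval moult of Drosophila leads from the second into the third instar. Around a moult the epidermis lays down a new cuticle of chitin and structural proteins under a pulse of the steroid hormone ecdysone. During the third instar the larva feeds and grows strongly, the fat body fills the blood with storage proteins, and the salivary glands make the glue that later fixes the puparium. A whole larva is a mixture of tissues, so fewer cells of a type and less RNA per cell cannot be told apart.

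Of the 7180 genes, 691 (9.62%) were higher and 1145 (15.9%) were lower at 96 h than at 72 h, and 5344 (74.4%) differed by less than 2-fold. The median difference was -0.13 and the quartiles were -0.68 and 0.37. The ends of the range were far out, with 50 genes (0.696%) at least 16-fold higher and 110 genes (1.53%) at least 16-fold lower at 96 h. Scaling moved the split: the higher genes made up 37.6% of all calls as deposited, 48.4% with the median ratio set to 1, and 14.1% with both libraries scaled to an equal sum after small RNAs were left out, which moved the median to -0.62.

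**Figure D1:**
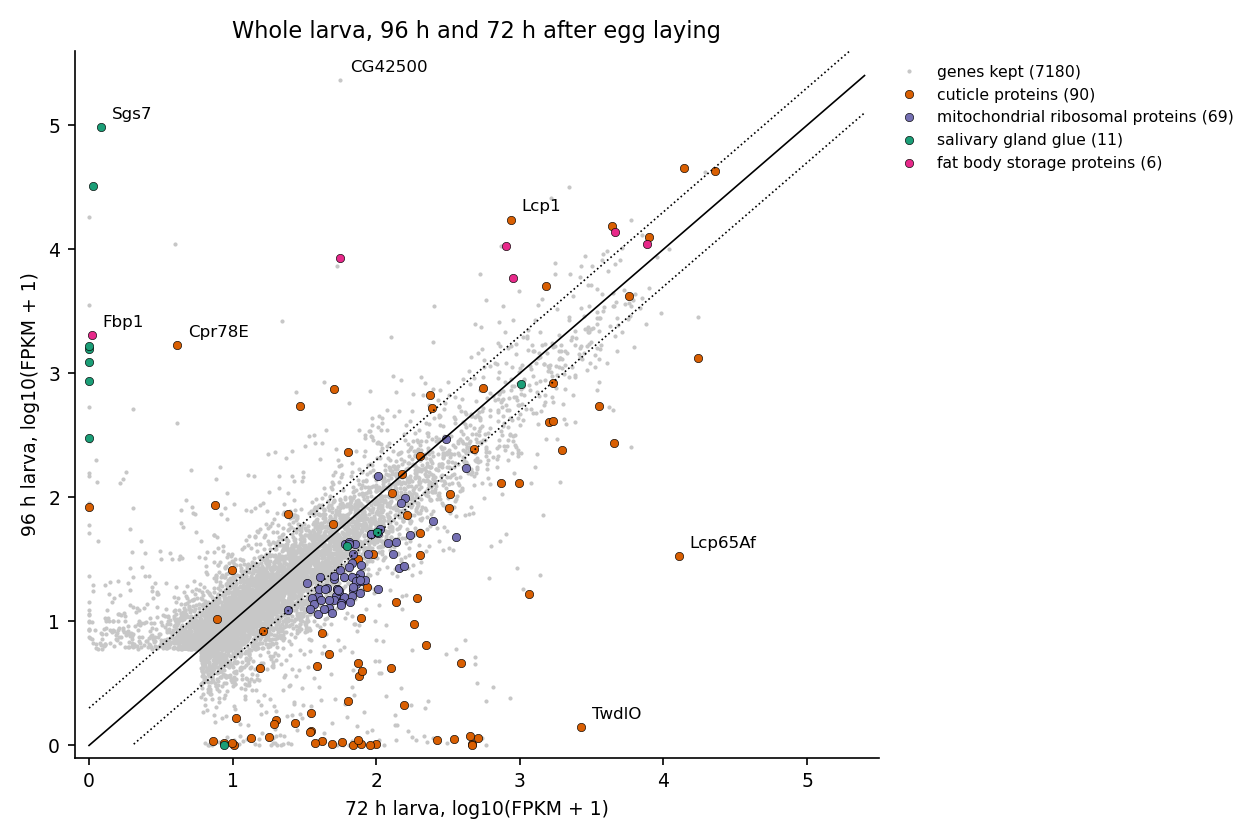
Each point is a gene kept by the rule, placed by its log10(FPKM + 1) in the 96 h larva (vertical) and the 72 h larva (horizontal); colours mark 4 gene lists, the solid line equal values and the dotted lines a 2-fold ratio. Of the glue genes 7 of 11 and of the storage protein genes 5 of 6 lie above the lines, most cuticle protein genes and 53 of 69 mitochondrial ribosomal protein genes below them.

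Small RNAs took 14.0% of the summed FPKM in the 96 h larva, against 50.0% in the 72 h larva. Among the other genes, the 10 highest took 37.7% of the sum at 96 h and 12.8% at 72 h, while the median gene stood at 8.37 FPKM at 96 h and 8.75 FPKM at 72 h. The libraries held RNA of the tissues that a larva has. Muscle actin Act57B was at 4021 FPKM at 96 h and 7038 FPKM at 72 h, the neuronal RNA-binding protein gene elav at 7.32 FPKM at 96 h and 6.89 FPKM at 72 h, and the gut protease gene epsilonTry at 1981 FPKM at 96 h and 1126 FPKM at 72 h. Yolk and eggshell genes of the adult female reached at most 1.12 FPKM in either library (6 genes). The gene white (w), mutant in this strain, was at 0.160 FPKM at 96 h and 0.00814 FPKM at 72 h.

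The largest rises were in genes of the salivary gland glue. Sgs7, which encodes a small glue protein, had 96631 FPKM at 96 h, against 0.217 FPKM at 72 h, a log2 difference of 16.28. Sgs8 had 32434 FPKM at 96 h and 0.0623 FPKM at 72 h, a difference of 14.90. Sgs3 (1568 FPKM at 96 h), Sgs5 (1226 FPKM), Sgs5bis (1647 FPKM) and Eig71Ee (860 FPKM) were listed at 0 at 72 h, and Sgs4, with 301 FPKM at 96 h, was listed at under 0.01 FPKM at 72 h. Of 9 measured genes of the Eig71E family, small secreted proteins induced by ecdysone, only Eig71Ee was kept. The 6 Sgs genes summed to 133807 FPKM at 96 h, against 0.280 FPKM at 72 h.

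Not every gene of the glue list moved this way. Of 11 measured members 7 were higher and 1 was lower at 96 h (3 lower at equal sums), where 9.62% of all genes were higher. Among the new-glue genes, which are expressed in the same glands, ng1, ng2 and ng3 were present at both ages. The values of ng3 were 821 FPKM at 96 h and 1019 FPKM at 72 h. For ng1 they were 52.0 FPKM at 96 h and 100.1 FPKM at 72 h, and for ng2 39.4 FPKM at 96 h and 61.9 FPKM at 72 h. The fourth, ng4, was listed at 0 at 96 h and had 7.74 FPKM at 72 h. Among factors of the gland, sage, a transcription factor of salivary gland identity, had 30.6 FPKM at 96 h and 2.16 FPKM at 72 h (difference 3.32). Its partner fkh had 7.94 FPKM at 96 h and 7.55 FPKM at 72 h, and CrebA, a regulator of secretory capacity, had 22.2 FPKM at 96 h and 24.5 FPKM at 72 h.

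Several of the largest rises were in genes without a descriptive name. CG42500 was the highest gene of the 96 h larva outside small RNAs, with 231825 FPKM at 96 h against 54.9 FPKM at 72 h (difference 12.02). CG17105 had 11031 FPKM at 96 h and 2.98 FPKM at 72 h. CG7606 (18103 FPKM at 96 h) and CG15404 (3572 FPKM) were listed at 0 at 72 h, and CG31698 (530 FPKM) at under 0.01 FPKM. CG12715 had 282 FPKM at 96 h and 0.0177 FPKM at 72 h. In the BDGP6.54 annotation CG7606 lies next to Sgs5 and Sgs5bis.

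Genes of the fat body storage proteins were the next group. All 6 measured members were above their 72 h value and 5 passed 2-fold. Fbp1, the receptor through which the fat body takes storage proteins back up, had 2016 FPKM at 96 h and 0.0438 FPKM at 72 h (difference 10.92). Fbp2, a fat body protein of the alcohol dehydrogenase family, had 8454 FPKM at 96 h and 55.0 FPKM at 72 h (7.24). The hexamerin genes, whose products are the amino acid store, differed among themselves. Lsp2 had 10649 FPKM at 96 h and 799 FPKM at 72 h (3.73), Lsp1alpha 5842 FPKM at 96 h and 898 FPKM at 72 h (2.70), and Lsp1gamma 13736 FPKM at 96 h and 4578 FPKM at 72 h (1.58). Lsp1beta, at 11074 FPKM at 96 h and 7722 FPKM at 72 h, did not reach 2-fold.

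Cuticle protein genes were lower in most cases, and made up 31 of the 110 genes at least 16-fold lower and 8 of the 15 largest falls. Of 103 measured members 90 were kept by the rule, and 65 of these were lower and 14 were higher at 96 h, where 15.9% of all genes were lower and 9.62% higher. The list's median difference was -2.97, against -0.13 over all genes. The list was matched by symbol and also took in Cpr itself, which encodes cytochrome P450 reductase and no cuticle protein. Cpr had 71.3 FPKM at 96 h and 163.9 FPKM at 72 h (-1.19), and all counts, medians and sums of the list include it.

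The Tweedle proteins, secreted cuticle proteins that shape the larval body, fell. Of 21 Twdl genes measured 20 were kept, and all 20 were lower; TwdlZ was below 5 FPKM at both ages. The family summed to 150 FPKM at 96 h, against 5484 FPKM at 72 h. TwdlO had 0.399 FPKM at 96 h and 2679 FPKM at 72 h, a difference of -10.90, the largest fall among named genes. TwdlM had 0.0235 FPKM at 96 h and 460 FPKM at 72 h, and TwdlN 0.132 FPKM at 96 h and 348 FPKM at 72 h. TwdlH was listed at 0 at 96 h, against 460 FPKM at 72 h. The smallest differences of the family were those of TwdlX, with 106 FPKM at 96 h and 325 FPKM at 72 h (-1.61), and Twdlbeta, with 33.8 FPKM at 96 h and 94.4 FPKM at 72 h (-1.45).

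The 7 Ccp84A genes, a cluster of cuticle protein genes next to the Antennapedia complex, were all lower, and summed to 33.2 FPKM at 96 h, against 1064 FPKM at 72 h. Ccp84Ae had 0.106 FPKM at 96 h and 264 FPKM at 72 h. The Cpr genes, which apart from Cpr itself share the chitin-binding domain named after Rebers and Riddiford, were split. Of 47 kept, Cpr itself included, 29 were lower and 10 higher. Cpr65Ea had 0.138 FPKM at 96 h and 511 FPKM at 72 h (-8.81), and Cpr64Ad 0.189 FPKM at 96 h and 449 FPKM at 72 h (-8.56). The highest of those that fell, Cpr47Eg, had 1317 FPKM at 96 h and 17275 FPKM at 72 h (-3.71).

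Opposite to these stood Cpr78E, with 1693 FPKM at 96 h and 3.11 FPKM at 72 h, a difference of 8.69. Cpr65Aw had 546 FPKM at 96 h and 28.6 FPKM at 72 h (4.21), Cpr49Ac 744 FPKM at 96 h and 49.6 FPKM at 72 h (3.88), and Cpr49Ah 85.1 FPKM at 96 h and 6.52 FPKM at 72 h (3.52). Cpr65Au, with 83.1 FPKM at 96 h, was listed at 0 at 72 h.

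The Lcp genes, which encode the abundant larval cuticle proteins, were also split, with 3 higher and 8 lower of 13 kept. The 8 lower were all Lcp65A genes, while Lcp1, Lcp2, Lcp3, Lcp4 and Lcp9 were all above their 72 h value. Lcp1 had 17312 FPKM at 96 h and 861 FPKM at 72 h (4.33), Lcp2 15470 FPKM at 96 h and 4353 FPKM at 72 h (1.83), and Lcp4 45271 FPKM at 96 h and 13996 FPKM at 72 h (1.69). Lcp3, the highest gene of the 72 h larva on the same terms, had 42863 FPKM at 96 h and 22865 FPKM at 72 h (0.91). By contrast, Lcp65Af had 32.7 FPKM at 96 h and 12797 FPKM at 72 h (-8.57). Although 65 of the 90 cuticle genes were lower, the 103 members summed to 153757 FPKM at 96 h and 117022 FPKM at 72 h, of which the Lcp genes made up 135091 FPKM at 96 h and 73994 FPKM at 72 h. Values of single genes among near-identical copies, such as those of the Lcp, Twdl, Sgs and Jonah families, are uncertain, since reads may be split between copies.

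**Figure D2:**
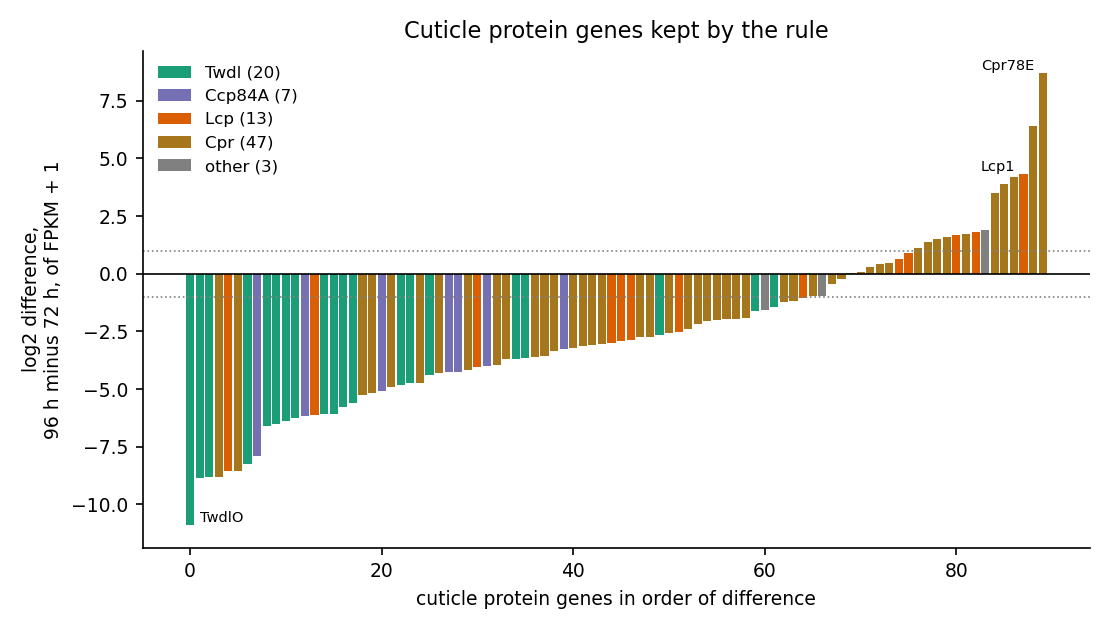
Bars give the log2 difference (96 h minus 72 h, of FPKM + 1) of the 90 genes of the cuticle list kept, in order, coloured by family. Cpr itself, no cuticle protein gene, is among them. Dotted lines mark 2-fold. The 20 Twdl and 7 Ccp84A genes all lie below the lower line, while 10 Cpr and 3 Lcp genes lie above the upper one.

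Genes that act on the cuticle in other ways were fewer among the calls. Of 25 genes of chitin synthesis and remodelling, 2 were higher and 7 lower, where 9.62% of all genes were higher and 15.9% lower (1 and 9 at equal sums). The chitin deacetylase genes verm (199 FPKM at 96 h and 601 FPKM at 72 h) and serp (167 FPKM at 96 h and 505 FPKM at 72 h) both had a difference of -1.59, and obst-A, which encodes a chitin-binding organizer of the matrix, had 173 FPKM at 96 h and 505 FPKM at 72 h (-1.54). Chitin synthase kkv had 30.5 FPKM at 96 h and 43.4 FPKM at 72 h, within 2-fold. Higher at 96 h were the chitinase genes Cht10, with 44.6 FPKM at 96 h and 11.3 FPKM at 72 h (1.89), and Cht11, with 8.36 FPKM at 96 h and 3.12 FPKM at 72 h (1.18).

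The Osiris genes, which encode membrane proteins of cuticle-forming cells, had 4 of 15 measured members kept, and all 4 were lower. Osi14 had 0.760 FPKM at 96 h and 25.1 FPKM at 72 h (-3.89). Of 10 genes of cuticle hardening and pigment kept, 4 were higher and none lower, where 9.62% of all genes were higher, and 6 did not pass 2-fold. Among the 4, yellow-d2 had 166 FPKM at 96 h and 4.17 FPKM at 72 h (5.02), and Ddc, the dopa decarboxylase gene, had 29.4 FPKM at 96 h and 7.22 FPKM at 72 h (1.89). The tyrosine hydroxylase gene ple had 11.6 FPKM at 96 h and 9.96 FPKM at 72 h.

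Genes at both ends of the range were short. The median coding length was 390 nt in the 50 genes at least 16-fold higher and 512 nt in the 110 genes at least 16-fold lower, against 1191 nt over all kept genes. A CG number was the only symbol of 46.0% of the 50 and of 64.5% of the 110, against 33.0% of all kept genes. The largest falls of genes with a CG number were those of CG13066, with 0.145 FPKM at 96 h and 542 FPKM at 72 h (-8.89), CG17290, with 1.42 FPKM at 96 h and 859 FPKM at 72 h (-8.47), and CG31626, with 0.0470 FPKM at 96 h and 309 FPKM at 72 h (-8.21). CG13047, CG13068, CG13674 and CG13679 had between 0.0735 and 1.96 FPKM at 96 h and between 226 and 647 FPKM at 72 h. Of the 110 genes, 97 stood in cluster 6 of the authors' deposited table, which held 17.1% of the kept genes, but that clustering was made on these same samples.

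Many of these genes were neighbours. In the gene order of BDGP6.54, 38 of the 106 protein-coding genes among the 110 (35.8%) lay next to another of them, against 71 of 6644 other kept genes (1.07%) that lay next to one. The longest run had 9 adjacent genes on chromosome arm 3R, TwdlM, TwdlP, TwdlB, TwdlL, TwdlO, TwdlK, TwdlJ, TwdlN and TwdlH. A second run on 3R held 5 Ccp84A genes from Ccp84Ag to Ccp84Ac. On 3L, CG13068, CG34248, CG13067 and CG13066 stood side by side, as did CG13049, CG13048 and CG13047. Of the 45 protein-coding genes at least 16-fold higher, 9 had such a neighbour, against 36 of 6705 other kept genes (0.537%), and the only run of 3 or more was that of Sgs5bis, Sgs5 and CG7606. Runs of this kind hold tandem copies, among which reads may be shared.

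**Figure D3:**
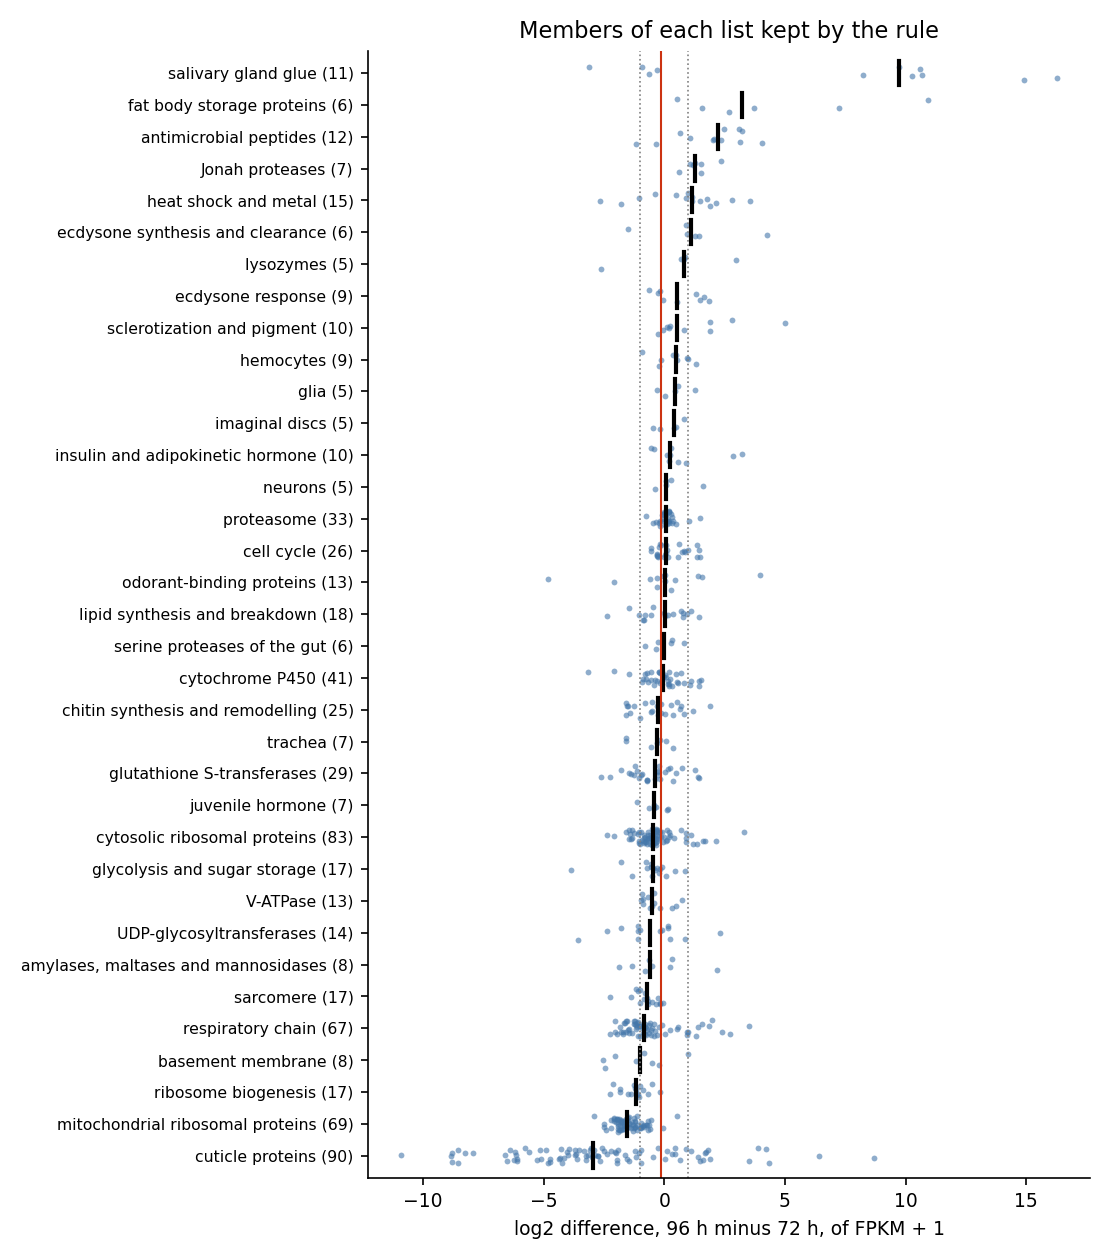
Each point is a member of a gene list kept by the rule (lists with at least 5 such members, number in brackets), placed by its log2 difference (96 h minus 72 h, of FPKM + 1); black bars are list medians, the red line the median of all genes and dotted lines 2-fold. Glue and storage proteins stand at the upper end, cuticle and mitochondrial ribosomal proteins at the lower.

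Mitochondrial ribosomal protein genes, whose products translate the few proteins encoded in mitochondria, were lower as a group. Of 69 kept, 53 (76.8%) were lower and none was higher, against 15.9% and 9.62% of all genes, and 68 of the 69 differences were negative. The median was -1.55. Large and small subunit genes were alike in this, with medians of -1.55 for 45 mRpL genes and -1.56 for 24 mRpS genes. The largest difference was that of mRpL12, with 47.0 FPKM at 96 h and 360 FPKM at 72 h (-2.91). At the other end were mRpL33, with 294 FPKM at 96 h and 307 FPKM at 72 h, and mRpS21, with 148 FPKM at 96 h and 102 FPKM at 72 h (0.53).

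Genes for building the cytosolic ribosome fell too, with 12 lower and none higher of 17 kept and a median of -1.16. Fib, the nucleolar methyltransferase of ribosomal RNA, had 26.2 FPKM at 96 h and 117 FPKM at 72 h (-2.12), and eIF6, a factor that binds the large subunit during its assembly, had 18.1 FPKM at 96 h and 90.1 FPKM at 72 h (-2.26). Myc, a transcription factor that drives ribosome synthesis, had 18.2 FPKM at 96 h and 37.2 FPKM at 72 h (-0.99). The cytosolic ribosomal proteins themselves were lower in 15 (18.1%) and higher in 7 (8.43%) of 83, close to the 15.9% and 9.62% over all genes. Their median was -0.47. With libraries scaled to equal sums, 4 were higher and 37 lower, and at median-ratio scaling 10 were higher and 10 lower. RpL15 had 844 FPKM at 96 h and 3564 FPKM at 72 h (-2.08), while RpL38 had 7711 FPKM at 96 h and 1744 FPKM at 72 h (2.14).

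Respiratory chain genes also showed a mixed picture. Of 67 kept, 28 were lower and 8 higher, where 15.9% of all genes were lower and 9.62% higher. Their median was -0.83. With libraries scaled to equal sums 4 were higher and 45 lower, and at median-ratio scaling 12 were higher and 23 lower. ATP synthase subunits were lower in 7 of 12, among them ATPsynC with 1613 FPKM at 96 h and 6241 FPKM at 72 h (-1.95). UQCR-Q of complex III had 428 FPKM at 96 h and 2021 FPKM at 72 h (-2.24), and SdhA of complex II 72.0 FPKM at 96 h and 238 FPKM at 72 h (-1.71). The COX genes, of complex IV, had calls both ways. Of 10 kept, 3 were higher and 1 lower, with a median of 0.61, and the 3 are among the duplicates given below. Of the others, COX5B was lower (-1.65) and none was higher. COX4 stood at -0.82, COX5A at -0.10, COX7B at 0.04, COX6B at 0.26, COX7A at 0.96 and COX7C at 0.97. Of the 8 that were higher, 3 were above 20 FPKM at both ages. ND-AGGG had 94.1 FPKM at 96 h and 25.7 FPKM at 72 h (1.83), UQCR-11 1580 FPKM at 96 h and 540 FPKM at 72 h (1.55), and ND-MLRQ 3524 FPKM at 96 h and 1330 FPKM at 72 h (1.40).

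The other 5 of the 8 were duplicate genes at low levels, picked out after their values were seen. UQCR-14L had 21.9 FPKM at 96 h and 1.01 FPKM at 72 h (3.51), COX4L 10.7 FPKM at 96 h and 0.745 FPKM at 72 h (2.74), and COX7AL 7.13 FPKM at 96 h and 0.568 FPKM at 72 h (2.37). COX5BL and ATPsynepsilonL were the others. Duplicates of cytosolic ribosomal protein genes differed among themselves. RpS28-like had 13.4 FPKM at 96 h and 0.441 FPKM at 72 h (3.32), and RpS10a 6.11 FPKM at 96 h and 1.81 FPKM at 72 h (1.34). RpS14b, at a higher level, had 180 FPKM at 96 h and 55.6 FPKM at 72 h (1.68). Lower were RpS15Aa (-2.38), RpS5a (-1.47) and RpL34b (-1.41). RpL22-like (0.89), RpS15Ab (-0.08) and RpS5b (-0.34) did not pass 2-fold. Nor did the related genes RpL24-like (0.10), RpL7-like (-0.40) and RpLP0-like (-0.56), which are not taken as duplicates here. Among proteasome genes Rpt4R had 6.62 FPKM at 96 h and 1.71 FPKM at 72 h (1.49) and Rpt3R 6.15 FPKM at 96 h and 2.52 FPKM at 72 h (1.02). Apart from RpS14b, the higher duplicates named here were under 5 FPKM at 72 h, so each was kept through its 96 h value alone. No list of duplicates was used. Several of these low duplicates are known mainly from the testis. These Rpt genes were the only proteasome genes past 2-fold of 33 kept, where the list's median was 0.08 as deposited and -0.41 with libraries scaled to equal sums, where none was higher and 1 lower. Of 5 male germ line genes measured only bol was kept, at 20.5 FPKM at 96 h and 23.5 FPKM at 72 h.

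Short genes moved apart from long ones in these libraries, and the ribosomal and respiratory lists hold many short genes. Over all kept genes with a coding length under 300 nt (318 genes) the median difference was 0.35, against -0.29 at 300 to 599 nt, -0.21 at 600 to 1199 nt and -0.05 at 2400 nt and over. Among cytosolic ribosomal protein genes the median was 0.88 under 300 nt (11 genes, 5 of them higher), -0.48 at 300 to 599 nt and -0.54 at 600 to 1199 nt. Respiratory chain genes had medians of 0.41, -0.77, -1.19 and -1.27 from the shortest class to that of 1200 to 2399 nt. Mitochondrial ribosomal proteins were lower in most cases above 300 nt, with 30 of 36 genes lower at 300 to 599 nt, where 24.8% of all genes were lower, 20 of 27 at 600 to 1199 nt, where 18.7% were, and 2 of 3 at 1200 to 2399 nt. The part of coding length in these results was not tested. The disc libraries of the same ages had a median of -0.39 under 300 nt and 0.20 at 2400 nt and over.

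**Figure D4:**
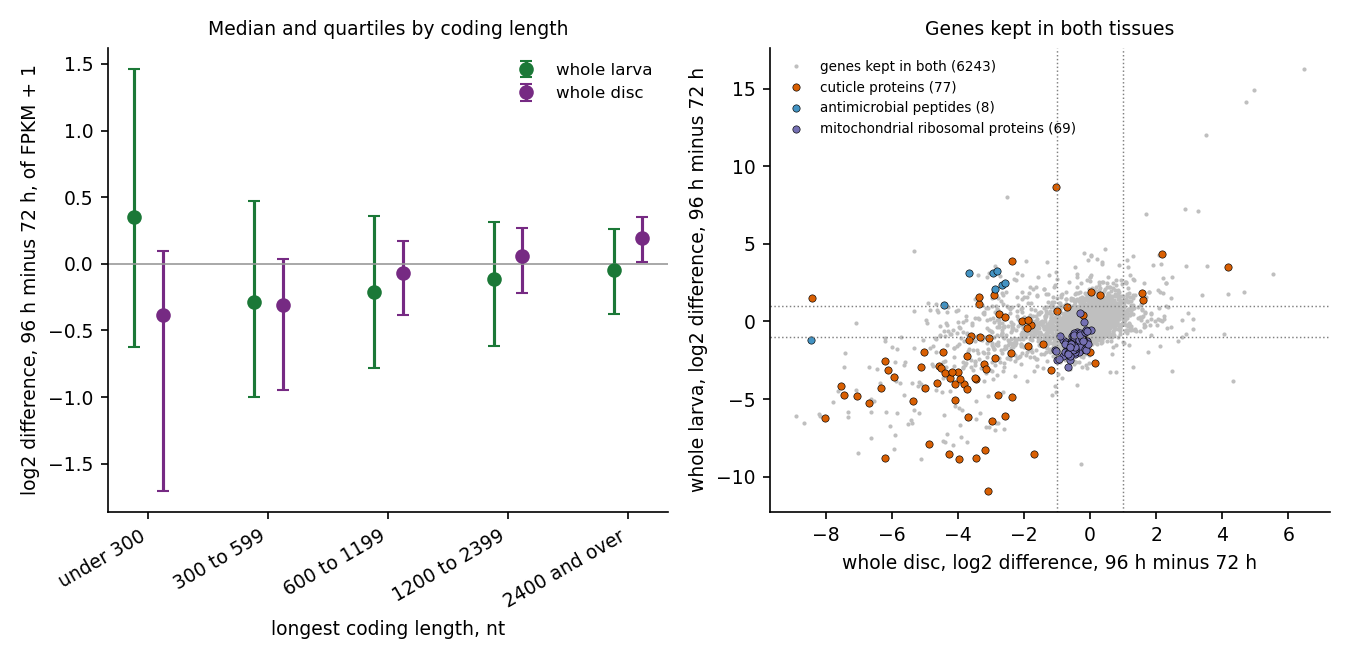
Left, medians (points) and quartiles (bars) of the log2 difference, 96 h minus 72 h, by coding length, in the whole larva (green) and the whole disc (purple); right, the difference of each of 6243 genes in the larva (vertical) and the disc (horizontal), with 3 lists coloured. Genes under 300 nt have a median of 0.35 in the larva and -0.39 in the disc, and most cuticle genes lie at the lower left.

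Basement membrane genes were lower in 4 of 8, where 15.9% of all genes were lower. Both chains of collagen IV, the main protein network of basement membranes, fell, Col4a1 with 83.2 FPKM at 96 h and 458 FPKM at 72 h (-2.45) and vkg with 39.8 FPKM at 96 h and 234 FPKM at 72 h (-2.53). Nidogen (Ndg) had 11.9 FPKM at 96 h and 52.3 FPKM at 72 h (-2.05), and SPARC, a collagen-binding protein, 189 FPKM at 96 h and 423 FPKM at 72 h (-1.16). The laminin genes LanA (22.6 FPKM at 96 h and 41.2 FPKM at 72 h) and LanB1 (21.5 FPKM at 96 h and 31.2 FPKM at 72 h) stayed within 2-fold. Fat body and blood cells are known to make these proteins. Of 9 hemocyte genes kept, 1 (11.1%) was higher, close to the 9.62% over all genes, and none was lower. At median-ratio scaling 3 were higher, and at equal sums none was higher and 1 lower. Hml, a hemocyte marker, had 19.3 FPKM at 96 h and 13.1 FPKM at 72 h.

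Genes of muscle contraction were lower in 5 of 17, where 15.9% of all genes were lower. All 17 differences were negative as deposited, with a median of -0.73. Mlc2, a myosin light chain gene, had 735 FPKM at 96 h and 3450 FPKM at 72 h (-2.23), whereas Mlc1 had 3476 FPKM at 96 h and 4457 FPKM at 72 h (-0.36). With libraries scaled to equal sums, 12 of the 17 were lower, and at median-ratio scaling 3 were.

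Digestive enzymes split by family, where 9.62% of all genes were higher and 15.9% lower. Of 7 Jonah genes, which encode chymotrypsin-like proteases of the gut, 6 were higher and none lower, with a median of 1.27, though 3 were higher with libraries scaled to equal sums. Jon66Ci had 2488 FPKM at 96 h and 486 FPKM at 72 h (2.35), and Jon65Aiv, the highest, 17252 FPKM at 96 h and 5987 FPKM at 72 h (1.53). None of 5 trypsin genes, nor psh, an immune protease of the Toll pathway that the same list held, passed 2-fold, and 1 of these 6 was lower at equal sums. Maltase genes went both ways, Mal-A5 with 107 FPKM at 96 h and 23.1 FPKM at 72 h (2.17) and Mal-A3 with 83.7 FPKM at 96 h and 306 FPKM at 72 h (-1.86), the list of 8 having 1 higher and 2 lower, or 1 and 5 at equal sums. Lysozyme genes had 1 higher and 1 lower of 5 (none higher at equal sums and 2 at median-ratio scaling), and LysS, the highest, had 5135 FPKM at 96 h and 3133 FPKM at 72 h.

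Antimicrobial peptide genes encode secreted effectors of the humoral immune response. Of 12 kept, 9 were higher and 1 lower, where 9.62% of all genes were higher and 15.9% lower. With a minimum of 20 FPKM, 3 were higher. Of the 9, only Dro and DptB reached 5 FPKM at 72 h, so the others were kept through their 96 h value alone. Dro, the drosocin gene, had 207 FPKM at 96 h and 22.6 FPKM at 72 h (3.14), DptA 22.1 FPKM at 96 h and 1.45 FPKM at 72 h (3.24), and CecB 16.6 FPKM at 96 h and 0.0612 FPKM at 72 h (4.05). Mtk, the metchnikowin gene, was lower, with 144 FPKM at 96 h and 326 FPKM at 72 h (-1.17). Apart from Dro and Drsl2, those above their 72 h value were under 40 FPKM at 96 h: DptB, the highest of them, had 37.5 FPKM at 96 h and 17.1 FPKM at 72 h.

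Of 6 genes of steroid hormone synthesis and clearance kept, 3 were higher and 1 lower, where 9.62% of all genes were higher and 15.9% lower. The higher count was 1 at equal sums and 5 at median-ratio scaling. The Halloween gene sro had 43.3 FPKM at 96 h and 1.29 FPKM at 72 h (4.27), spok 9.44 FPKM at 96 h and 3.37 FPKM at 72 h (1.26), and Start1, which handles sterols, 12.2 FPKM at 96 h and 3.94 FPKM at 72 h (1.42). Cyp18a1, which inactivates ecdysone, had 3.82 FPKM at 96 h and 12.8 FPKM at 72 h (-1.51). The 3 higher genes were under 5 FPKM at 72 h and were kept through their 96 h value alone. In the same way, Cyp18a1 was kept through its 72 h value. Of 9 response genes 4 were higher and none lower (3 and 1 at equal sums). ImpL2, which encodes a secreted binder of insulin-like peptides, had 69.6 FPKM at 96 h and 27.0 FPKM at 72 h (1.33), the receptor gene EcR 27.9 FPKM at 96 h and 9.29 FPKM at 72 h (1.49), and Eip74EF 27.1 FPKM at 96 h and 7.98 FPKM at 72 h (1.65). Eip75B had 15.3 FPKM at 96 h and 17.5 FPKM at 72 h. Of 7 juvenile hormone genes 1 was lower, Jheh1, a degrading epoxide hydrolase, with 45.2 FPKM at 96 h and 101 FPKM at 72 h (-1.14); none was at median-ratio scaling and 2 were at equal sums.

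Of 10 insulin and adipokinetic hormone genes 2 were higher and none lower, where 9.62% of all genes were higher (3 at median-ratio scaling). Ilp6, the insulin-like peptide of the fat body, had 16.8 FPKM at 96 h and 0.917 FPKM at 72 h (3.21), and Thor, the translation inhibitor 4E-BP, 945 FPKM at 96 h and 129 FPKM at 72 h (2.86). Ilp2 and Ilp5, made in the brain, stayed within 2-fold, Ilp5 with 7.67 FPKM at 96 h and 11.8 FPKM at 72 h. Of 17 genes of glycolysis and sugar storage 3 were lower and none higher, close to the 15.9% lower over all genes, and 8 were lower at equal sums. Hex-C, a hexokinase, had 1.13 FPKM at 96 h and 30.1 FPKM at 72 h (-3.87), and Gpdh1, the glycerol 3-phosphate dehydrogenase gene, 168 FPKM at 96 h and 589 FPKM at 72 h (-1.80).

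Of 18 genes of lipid synthesis and breakdown 2 were higher and 3 lower, shares close to the 9.62% and 15.9% over all genes, and none was higher and 6 lower at equal sums. ACC, which makes malonyl-CoA, had 23.6 FPKM at 96 h and 128 FPKM at 72 h (-2.39), ATPCL, which supplies acetyl-CoA from citrate, 96.6 FPKM at 96 h and 266 FPKM at 72 h (-1.45), and AcCoAS 82.6 FPKM at 96 h and 172 FPKM at 72 h (-1.05). The 2 higher genes were yip2 with 277 FPKM at 96 h and 103 FPKM at 72 h (1.42) and Lip4 with 14.6 FPKM at 96 h and 6.18 FPKM at 72 h (1.12). The droplet protein gene Lsd-2 had 119 FPKM at 96 h and 118 FPKM at 72 h. Among 4 lipid transport genes 1 was lower (2 at equal sums), Apoltp, with 6.28 FPKM at 96 h and 32.9 FPKM at 72 h (-2.22), and apolpp, the main lipoprotein gene, had 677 FPKM at 96 h and 710 FPKM at 72 h.

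Heat shock and metal genes had 8 higher and 3 lower of 15, where 9.62% of all genes were higher and 15.9% lower. With libraries scaled to equal sums, 5 were higher and 3 lower. The small heat shock protein genes were highest among the rises, Hsp23 with 233 FPKM at 96 h and 18.7 FPKM at 72 h (3.57), Hsp27 with 147 FPKM at 96 h and 19.9 FPKM at 72 h (2.82), and Hsp26 with 135 FPKM at 96 h and 29.5 FPKM at 72 h (2.15). Hsp83 had 225 FPKM at 96 h and 294 FPKM at 72 h. Metallothionein genes, which bind copper and other metals, were split, with MtnA at 7360 FPKM at 96 h and 2664 FPKM at 72 h (1.47), and MtnC at 73.7 FPKM at 96 h and 474 FPKM at 72 h (-2.67).

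Detoxification families had calls both ways. Of 41 genes of the P450 list 5 (12.2%) were higher and 3 (7.32%) lower, against 9.62% higher and 15.9% lower over all genes. These counts turned round to 1 higher and 8 lower of 38 with libraries scaled to equal sums. The 41 include Cyp40, a cyclophilin gene and no P450, matched by its symbol, with 16.4 FPKM at 96 h and 16.8 FPKM at 72 h. Of 29 glutathione transferase genes 3 were higher and 9 lower (none higher and 14 lower at equal sums), and of 14 UDP-glycosyltransferase genes 1 was higher and 6 lower (2 and 3 at median-ratio scaling). Ugt37C1 had 1.22 FPKM at 96 h and 25.6 FPKM at 72 h (-3.58), and GstD7 25.8 FPKM at 96 h and 166 FPKM at 72 h (-2.64). Of 13 odorant-binding protein genes, which encode small secreted carriers, 3 were higher and 2 lower, or 2 and 3 at equal sums. Obp99b had 25878 FPKM at 96 h and 1643 FPKM at 72 h (3.98), the eighth highest gene of the 96 h larva, and Obp83cd 1.16 FPKM at 96 h and 60.1 FPKM at 72 h (-4.82).

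Few genes of growing and nervous tissue passed 2-fold. Of 26 cell cycle genes 4 were higher and none lower, where 9.62% of all genes were higher and 15.9% lower. At equal sums 1 of 21 was higher, and at median-ratio scaling 6 of 26 were. CycA, a mitotic cyclin gene, had 22.6 FPKM at 96 h and 7.46 FPKM at 72 h (1.48), CycB 14.5 FPKM at 96 h and 5.02 FPKM at 72 h (1.37), and Cdk1 (1.46) and aurA (1.37) were the others. Other mitotic genes of the list, stg (0.99), polo (0.88), fzy (0.82), aurB (0.72) and CycB3 (0.58), did not pass 2-fold. The replication gene PCNA had 43.9 FPKM at 96 h and 54.7 FPKM at 72 h. The list's median, 0.08 as deposited and 0.22 at median-ratio scaling, was -0.42 when libraries were scaled to an equal sum. Of 5 neuronal genes kept 1 was higher (Syt1, difference 1.61), of 5 glial genes 1 was higher (loco, 1.29), and of 5 imaginal disc genes, 3 tubule genes and 13 V-ATPase genes none passed 2-fold as deposited. At equal sums 6 of 13 V-ATPase genes were lower, and no glial gene was higher. Among 7 tracheal genes the only ones past it were verm and serp, described above. No gene of the neuroblast list or of the list for the germ line of both sexes reached 5 FPKM.

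At 120 h the genes of these groups went separate ways. The Twdl genes summed to 5484, 150 and 39.1 FPKM at 72, 96 and 120 h. For the Sgs genes the sums were 0.280, 133807 and 151119 FPKM at these ages, and for the Lcp genes 73994, 135091 and 38030 FPKM. Mitochondrial ribosomal genes of the large subunit summed to 4112, 1589 and 1266 FPKM. Among single genes, Cpr78E had 3.11, 1693 and 4955 FPKM at 72, 96 and 120 h, whereas Cpr65Aw had 28.6, 546 and 11.7 FPKM and stood out at 96 h alone. CG42500 had 54.9, 231825 and 60163 FPKM at these ages.

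**Figure D5:**
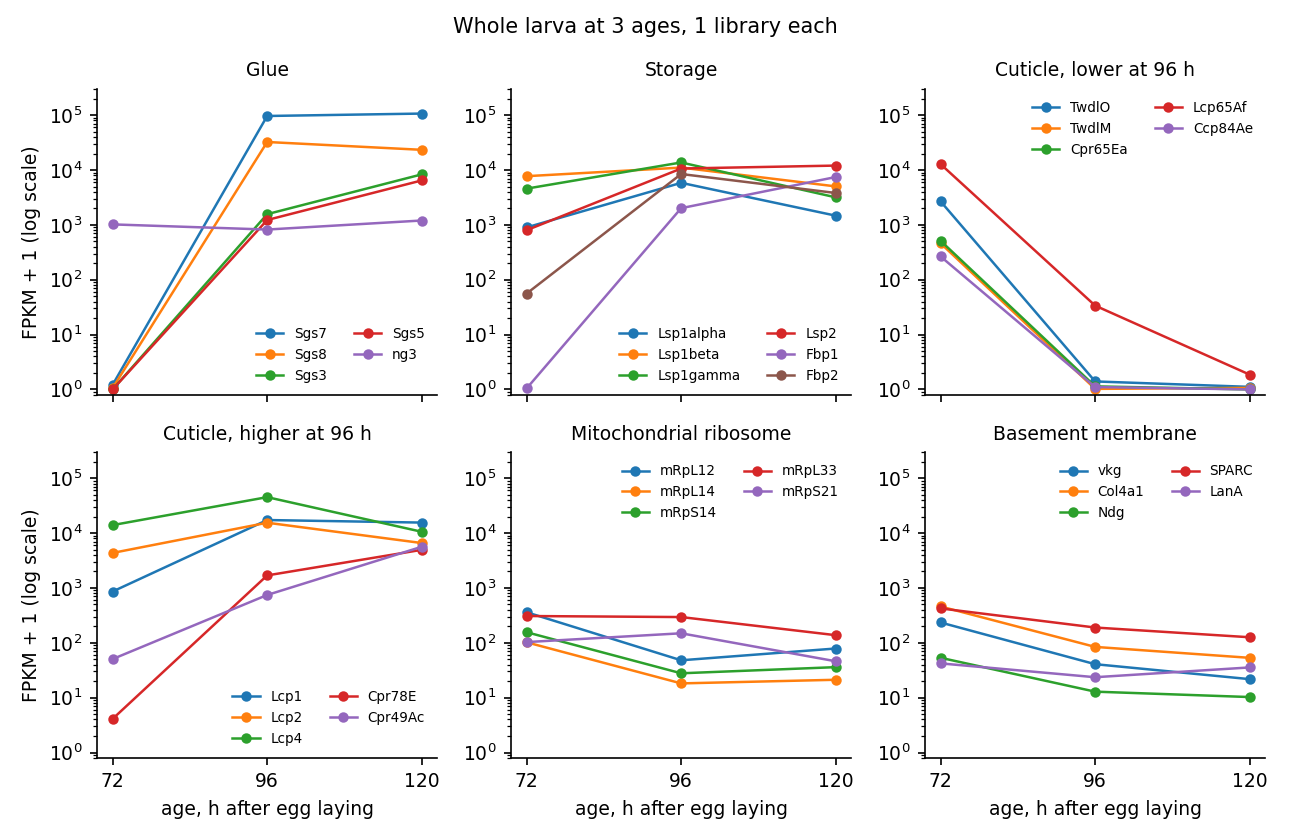
FPKM + 1 on a log axis against age (72, 96 and 120 h after egg laying) for named genes of 6 groups, 1 whole-larva library at each age. Glue genes apart from ng3 appear between 72 and 96 h and stay high. Of the 5 cuticle genes chosen for their fall, all but TwdlM are lowest at 120 h, with TwdlO at 2679, 0.399 and 0.114 FPKM. TwdlM has 0.0235 FPKM at 96 h and 0.0669 FPKM at 120 h.

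The eye-antennal disc, sequenced in libraries of its own, was set beside the larva. Of the 7180 genes, 6243 passed the same rule in the disc too, and of these 160 (2.56%) were higher and 680 (10.9%) lower in the 96 h disc than in the 72 h disc. In the larva, 433 of the 6243 (6.94%) were higher and 961 (15.4%) lower. Among them 331 were lower in both, which is 34.4% of the 961 lower in the larva and 48.7% of the 680 lower in the disc. Higher in both were 64 genes, 14.8% of the 433 higher in the larva and 40.0% of the 160 higher in the disc. A further 73 genes were higher in the larva and lower in the disc, and 8 were the reverse.

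Of 77 cuticle genes kept in both, 66 were lower in the disc, with a disc median of -3.37. In these 77, 51 were lower in both, 4 were higher in both, and 6 were higher in the larva and lower in the disc. TwdlO was listed at 0 in the 96 h disc, against 7.46 FPKM in the 72 h disc. Mitochondrial ribosomal genes did not pass 2-fold in most cases there, with 3 of 69 lower and a disc median of -0.47. Antimicrobial peptide genes were lower in all 8 members kept in the disc, and Dro had 2.62 FPKM in the 96 h disc and 26.6 FPKM in the 72 h disc. Sarcomere genes were lower in 13 of 17 in the disc, where the muscle gene Act57B had 390 FPKM at 96 h and 1668 FPKM at 72 h.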

How the data were processed

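The deposited table holds 1 value per gene for 12 libraries, 1 a group. No header names the unit, and the values were read as FPKM made by the authors with Cufflinks after TopHat, on build dm3, per the submitters' processing notes. Versions, read numbers, strand setting and annotation are not given in the sources, so no counting interval can be given, and an exact 0 is written as listed at 0. The authors' cluster number was used as a description only.

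Symbols were found for 10308 identifiers (94.6%) in the reference tables; lengths, gene order and overlaps came from BDGP6.54, and no coordinates are printed because the builds differ. Of 187 genes followed through the alternatives, 46 overlap a gene on the other strand, and their values are uncertain. Among them are Lsp2, Pcp, TwdlX, Hex-C, ACC, Ndg, DptB, sro, Ilp6 and Hsp27.

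Differences were log2((96 h FPKM + 1)/(72 h FPKM + 1)), called at 2-fold where the higher value was 5 FPKM or more. pandas 2.3.3, numpy 2.4.6 and Python 3.11.15 were used. A run of the rule on known changes put on the 72 h values checked the code only. It does not show how far the calls would hold in further libraries. No test was made, as there are no replicates. The members and the 44 gene lists were chosen with earlier results of these data known. Named genes were the 15 largest differences each way with a transcript of at least 300 nt, the members of each list past 2-fold with the largest differences, defining members, the highest genes, and w; other members are given for contrast. Alternatives changed the pseudocount, the filter, the scaling, the transcript length and the fold.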

Additional observations from a re-analysis of the deposited data

Results flagged for a closer look

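Of 81 genes that differed at least 2-fold one way in the whole larva and at least 2-fold the other way in the whole disc between 72 and 96 h, those among the genes followed through the alternatives are given, and not the rest. The difference between the tissues was not tested, since each group has 1 library. In the disc, 13 of 17 sarcomere genes were lower too, as was the lipoprotein gene apolpp (-4.35). The fat body genes Lsp2 (2.16) and Fbp2 (2.88) were higher there. Whether the disc libraries held RNA of other larval tissues was not tested. Values are log2 differences, 96 h minus 72 h.

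Of the antimicrobial peptide genes 7 were higher in the 96 h larva and lower in the 96 h disc, 5 of which are given: AttA differed by 2.36 in the larva and -2.66 in the disc, AttC by 2.47 and -2.57 in these tissues, Dro by 3.14 and -2.93, and DptA by 3.24 and -2.81. CecA1 had 7.52 FPKM in the 96 h larva and was listed at 0 at 72 h, and was listed at 0 in the 96 h disc with 11.8 FPKM in the 72 h disc.

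The same pattern was found in 3 Jonah genes. Jon25Bii differed by 1.06 in the larva and -3.29 in the disc, Jon65Aiii by 1.51 in the larva and -2.97 in the disc, and Jon65Aiv by 1.53 in the larva and -3.34 in the disc, where it had 6.09 FPKM at 96 h and 70.6 FPKM at 72 h.

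Of 6 such cuticle genes Cpr78E had 8.69 in the larva and -1.04 in the disc, and Cpr49Ac 3.88 in the larva and -2.37 in the disc; the others were Cpr65Av, Cpr60D, Cpr65Ay and Cpr67B. Ddc differed by 1.89 in the larva and -2.53 in the disc. The chitin-binding genes obst-A (-1.54 in the larva, 1.19 in the disc) and obst-B (-1.40 in the larva, 1.03 in the disc) ran the other way.

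In other lists, Lsp1gamma differed by 1.58 in the larva and -2.20 in the disc, and Cyp6w1 by 1.43 in the larva and -2.06 in the disc. Obp56d differed by 1.56 in the larva and had 59.1 FPKM in the 96 h disc and 239 FPKM in the 72 h disc.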

How the results depend on the processing

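With no replicates, no value here separates age from the single larva collection or library at each age. Pseudocounts of 0.1 and 5 and filters at 1 FPKM or none left both totals within 1.5 times. The 691 higher genes became 385 at a minimum of 20 FPKM, 338 with libraries scaled to an equal sum without small RNAs, 356 among transcripts of at least 1000 nt and 251 at 4-fold. The 1145 lower genes became 2059 at that scaling, 712 among long transcripts and 339 at 4-fold. Among long transcripts, where fewer genes were tested, the lower counts were 26 for cuticle proteins, 17 for mitochondrial ribosomal proteins and 12 for the respiratory chain (45 at equal sums), and the higher ones 2 for glue and 0 for antimicrobial peptides (3 at a minimum of 20 FPKM). None of 187 named genes reversed at both pseudocounts and both scalings, but no gene past 2-fold could have done so. A pseudocount cannot change the sign, and the log2 shift was -0.49 at equal sums and 0.15 at median-ratio scaling. Of the 187, 26 no longer reached 2-fold at equal sums, 20 at pseudocount 5 and 8 at median-ratio scaling. Jon25Bii, Jon25Biii and Jon74E were among the 26, which left 3 Jonah genes higher. No paired analysis was possible because each group has 1 library.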
